A study of Mus musculus with 6 samples.

Results

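The apelin and adrenomedullin signaling genes and their companions among the tip cell genes were measured in cells sorted as endothelial. These came from mammary glands of tumor model mice with and without the transcription factor Ets2 in the surrounding fibroblasts. The set held 10 of the 18193 mouse genes represented on the arrays, namely the peptide ligands Apln and Adm, the receptors Aplnr and Calcrl, the receptor activity modifying proteins Ramp2 and Ramp3, the guidance receptors Unc5b and Robo4, the secreted proteoglycan Esm1 and the potassium channel subunit Kcne3. They were chosen by name. A probe set counted for a gene only where its annotation named that gene alone, which gave 15 probe sets, and the one with the highest mean over the 6 arrays represented the gene while the others are given beside it.

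All mice were FVB/N mice of the PyMT mammary tumor model aged 9 weeks, in which polyoma middle T antigen drives tumors from the mammary epithelium. The 3 control samples had the genotype PyMT;Ets2db/loxP and the 3 deleted samples PyMT;Fsp-cre;Ets2db/loxP, so both groups carried PyMT, 1 conditional allele flanked by loxP sites and 1 conventional knockout allele (db) that targets the DNA-binding domain and is present in every cell, the sorted cells included. Cre was driven by the Fsp1 (S100a4) promoter, which is active in fibroblasts but is not limited to them in all settings. A single label field of the control samples denies an oncogene, but the genotype field lists PyMT, as do the title and the description, and the genotype set the groups here. Cells were released with collagenase, sorted on CD31 into Trizol, and their RNA was amplified and hybridized to 1 Affymetrix array per sample. The study calls the samples biological replicates, and the sources used here do not say whether cells of several mice were combined.

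A sprouting vessel is led by tip cells, which extend filopodia towards growth factors and carry a set of genes that the following stalk cells express less. Apelin, a peptide made by tip cells, acts on the receptor Aplnr of neighbouring endothelial cells, and adrenomedullin, a peptide that hypoxia induces in many cells, acts on the receptor Calcrl, which reaches the membrane and gains its specificity only in a complex with a Ramp protein. Unc5b and Robo4 are guidance receptors of the endothelium, Esm1 (endocan) is a proteoglycan secreted by tip cells, and Kcne3 is a single-pass subunit that changes the gating of voltage-gated potassium channels.

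Promoter sequence was read for the members because Ets2 belongs to the ETS family, whose proteins bind a GGAA core. A further reason was that its deletion was aimed at the fibroblasts and not at the sorted cells. RefSeq promoter windows of build GRCm38.p6, each from 250 bases before to 50 bases after a gene's start, were at hand for 8 of the 10 genes (9 windows, since Kcne3 had 2). Those of Apln and Adm, the 2 ligands, and of Robo4, an endothelial receptor whose group means lay within 0.01 of each other, are printed 5′ to 3′ on the gene's own strand, with each GGAA core, or TTCC for a core on the other strand, in capitals. They lie at chrX:48034804-48035103 on the minus strand, chr7:110627407-110627706 on the plus strand and chr9:37401722-37402021 on the plus strand.
Apln: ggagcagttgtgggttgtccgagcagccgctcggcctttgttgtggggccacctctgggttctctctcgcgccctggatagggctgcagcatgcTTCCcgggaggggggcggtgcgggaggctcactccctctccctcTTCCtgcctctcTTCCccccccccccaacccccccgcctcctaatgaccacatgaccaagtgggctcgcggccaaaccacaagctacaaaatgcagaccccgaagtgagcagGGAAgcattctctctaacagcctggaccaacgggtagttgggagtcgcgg
Adm: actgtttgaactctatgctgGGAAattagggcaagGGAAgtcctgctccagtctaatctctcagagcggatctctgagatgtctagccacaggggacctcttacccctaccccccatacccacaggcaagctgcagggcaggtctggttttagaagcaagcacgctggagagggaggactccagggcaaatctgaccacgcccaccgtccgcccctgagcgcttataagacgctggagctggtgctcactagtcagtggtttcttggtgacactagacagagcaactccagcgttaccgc
Robo4: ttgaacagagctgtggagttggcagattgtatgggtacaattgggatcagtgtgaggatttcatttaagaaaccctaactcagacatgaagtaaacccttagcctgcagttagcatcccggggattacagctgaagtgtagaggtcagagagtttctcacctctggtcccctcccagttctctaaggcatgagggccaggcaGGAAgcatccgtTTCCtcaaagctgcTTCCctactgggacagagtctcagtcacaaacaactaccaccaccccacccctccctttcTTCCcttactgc
The Apln and Robo4 windows each held 4 such cores and the Adm window 2. Every one of the 9 windows held at least 1, from 2 in Adm and Unc5b to 5 in Ramp3 and in the second Kcne3 window. The core is so short that 96.0% of all 32851 promoter windows held it, with a median of 3 per window. The letters ACGTG, 1 form of the core of the hypoxia response element, were read on both strands. They were found in 1 of the 9 windows, the first of Kcne3, against 19.6% of all windows. Other forms of that core were not counted, so this does not show that the other windows lack one. These matches describe letters and were not tested as binding sites.

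The values are log2 signals made by the authors with the Robust Multichip Average method, so a difference of 1 is a doubling, and the signals of different probe sets do not order the abundance of their transcripts. Over all 45037 probe sets the 6 arrays correlated at 0.979 to 0.993. The first principal component held 42.0% of the variance and set control replicate 3 (70.2) and deleted replicate 2 (35.8) apart from the other 4 arrays (-37.1 to -3.56). Control replicate 3 had the largest 3′ over 5′ difference of the Gapdh control probes (1.31, against 0.75 to 1.01 on the others) and of the actin control probes (1.67, against 0.99 to 1.29). Ets2 itself read 14.38 ± 0.12 in the control and 14.41 ± 0.10 in the deleted group (SD, n = 3). These values do not check the deletion, which was aimed at fibroblasts, since the share of targeted cells in the sorted samples is not known. Among the markers, the endothelial Pecam1, the CD31 gene used for the sort, read 11.30 ± 0.41 in the control and 11.69 ± 0.37 in the deleted group, Cdh5 10.97 ± 0.33 in the control and 11.09 ± 0.48 in the deleted group and Kdr 12.09 ± 0.31 in the control and 12.20 ± 0.31 in the deleted group (SD, n = 3).

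Apelin was the one member whose values did not overlap between the groups, and the other 9 genes showed smaller differences, wider spreads or both. Limma gave no member an adjusted p under 0.05, and it called 0 of 45037 probe sets (0.0%). With the p of limma, the study's thresholds, a change of over 2-fold and a p under 0.05 before adjustment, called 0 members. They called 0.0934% of all represented genes and 0.129% of all probe sets. The paper does not name its test for these cells, so these shares are not the study's own counts. The groups did not overlap for 1 member of 10, Apln, whereas 6.07% of the 18193 genes showed no overlap in either direction and 3.36% with the deleted group higher. Over single probe sets, 1 of the 15 of these genes and 6.44% of all 45037 lacked overlap. The same gene was the single member with an unadjusted p under 0.05 in limma over all 6 arrays without a block, a mark that 1.79% of all genes (0.72% with the deleted group higher) and 2.07% of all probe sets reached. Of the 10 genes 5 read higher and 5 lower in the deleted group, the median difference was 0.03 against 0.00 over all genes, and 7 members differed by less than 0.15 in size. The signs of Aplnr, Ramp2 and Robo4 turned when arrays were centred on their medians. Those of Calcrl, Ramp3, Unc5b and Kcne3 turned under other alternatives, so the split carries no firm direction for any of these genes. With 3 arrays per group the 95% intervals reached 0.29 to 0.77 to either side of a member's difference, so the number of arrays limits the precision.

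**Figure D1:**
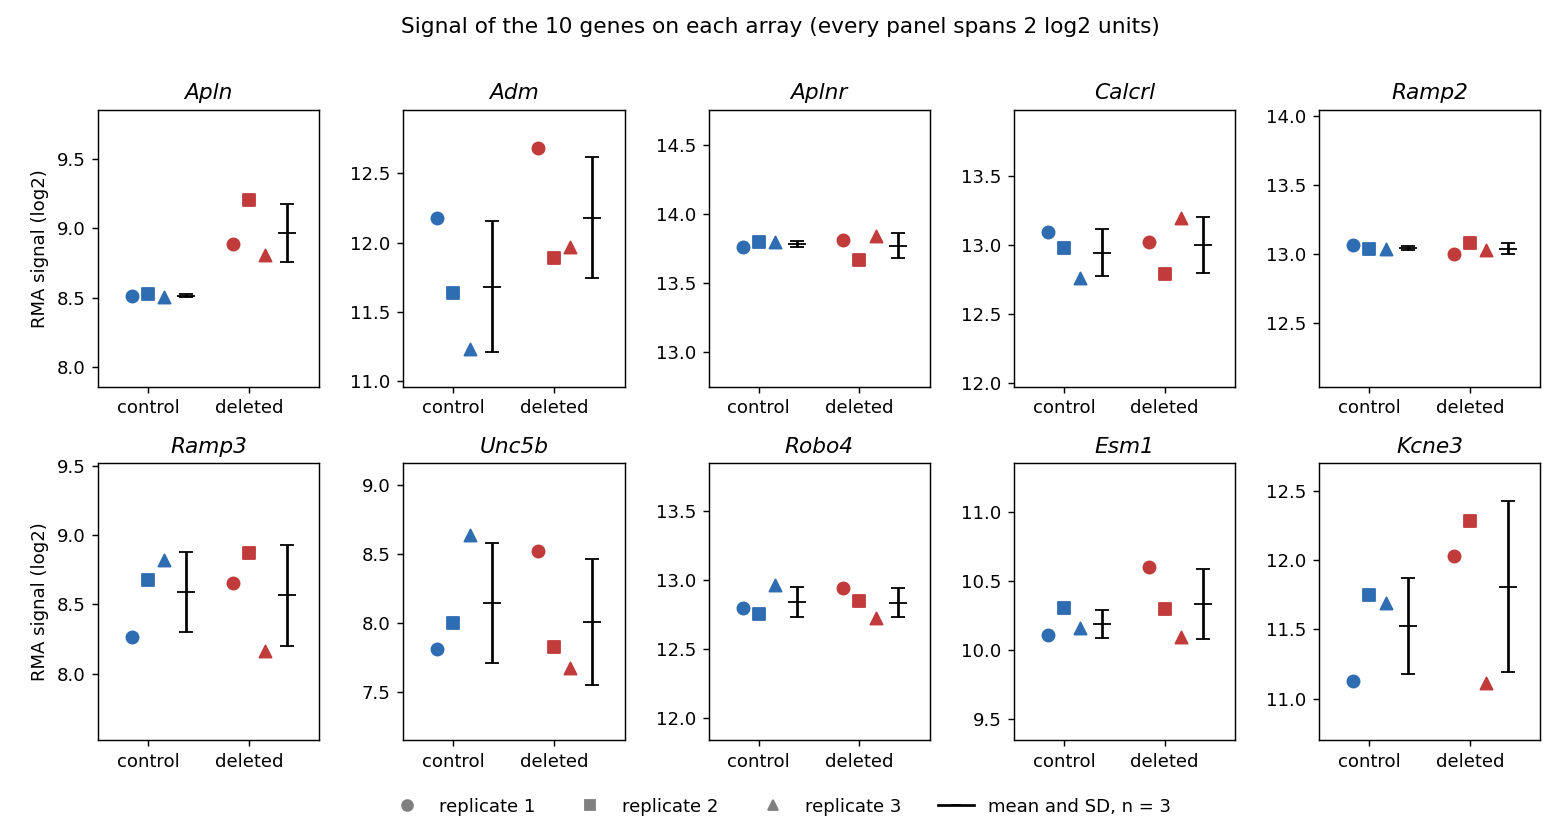
Log2 signal of the representative probe set of each of the 10 genes on the 6 arrays (symbols: replicates, blue control, red deleted, bars: mean and SD, n = 3), with 2 log2 units in every panel. The 3 control arrays of Apln lie within 0.02 of each other and below all deleted arrays, whereas the groups of the other 9 genes overlap.

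Apln, which encodes the apelin peptide, read 8.51, 8.53 and 8.50 on the control arrays and 8.89, 9.21 and 8.81 on the deleted arrays. The control values spanned 0.02 and the deleted values 0.40, and the lowest deleted array lay 0.28 above the highest control array. The group means were 8.51 ± 0.01 in the control and 8.97 ± 0.21 in the deleted group (SD, n = 3). The difference of 0.45 (SE 0.15, 95% interval 0.10 to 0.81) is a fold of 1.37 (95% interval 1.07 to 1.76). Limma gave it an unadjusted p of 0.020 and an adjusted p of 0.9999, and the exact two-sided permutation test gave 0.1, the smallest p that 3 arrays against 3 allow. Among all represented genes, 284 read higher in the deleted group by more than Apln did, and 95.5% had a smaller difference in either direction. Deleted replicate 2 gave the highest value, and without it the difference was 0.33. Leaving out each of the other 5 arrays in turn gave 0.45 (without control replicate 3) to 0.53 (without deleted replicate 3). The unadjusted p of limma was above 0.05 without control replicate 1 (0.051), control replicate 2 (0.054) or deleted replicate 2 (0.056), and an unmoderated test with unequal variances gave 0.065.

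Adm, which encodes adrenomedullin, had the larger difference and the wider spread. Its representative probe set, 1447839_x_at, whose suffix marks probes that can also match other transcripts, read 12.18, 11.63 and 11.23 on the control arrays and 12.69, 11.89 and 11.97 on the deleted arrays. The array with the highest Adm was deleted replicate 1 and the array with the lowest was control replicate 3, but control replicate 1 lay above the other 2 deleted arrays, so the groups overlapped. The difference was 0.50 (SE 0.30, 95% interval -0.22 to 1.22), a fold of 1.41 (95% interval 0.859 to 2.32), and the exact permutation p was 0.3. Its second probe set, 1416077_at, read 8.89, 8.93 and 8.49 on the control arrays and 9.57, 9.08 and 8.92 on the deleted arrays. It had the same top array and the same bottom array, and it differed by 0.42 (SE 0.22, 95% interval -0.09 to 0.94) with an exact permutation p of 0.2. Without deleted replicate 1 the representative probe set differed by 0.25, without control replicate 3 by 0.27 and without control replicate 1 by 0.75, where limma's unadjusted p was 0.041.

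The groups overlapped for both receptors. Aplnr, the G protein-coupled receptor that apelin binds, read 13.76, 13.80 and 13.79 on the control arrays and 13.81, 13.66 and 13.84 on the deleted arrays. All 6 arrays lay within 0.17, the deleted group held both the highest and the lowest of them, and the difference was -0.01 (SE 0.13, 95% interval -0.32 to 0.29). Its other probe set, 1423037_at, varied more, at 13.36, 13.18 and 12.63 on the control arrays and 13.33, 12.83 and 13.54 on the deleted arrays, and differed by 0.17 (SE 0.26, 95% interval -0.44 to 0.78). The lowest arrays on it were control replicate 3 and deleted replicate 2, the pair that the first principal component set apart.

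Calcrl, the adrenomedullin receptor, gave the same order of arrays. Its representative probe set read 13.09, 12.98 and 12.76 on the control arrays and 13.02, 12.79 and 13.19 on the deleted arrays, lowest on control replicate 3 and deleted replicate 2 and highest on deleted replicate 3. The difference was 0.06 (SE 0.17, 95% interval -0.34 to 0.45). Both other probe sets of Calcrl were dim, with single arrays between 3.97 and 6.19, where background makes up much of a value, and they differed by 0.44 (SE 0.46) and -0.26 (SE 0.32) in opposite directions.

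Ramp2 was the steadiest of the members over the arrays. This partner of Calcrl, which turns it into an adrenomedullin receptor, read 13.06, 13.03 and 13.03 on the control arrays and 13.003, 13.08 and 13.03 on the deleted arrays. The 6 values spanned 0.08, and only 0.203% of the represented genes had a smaller pooled SD than its 0.03. The difference of -0.01 (SE 0.12, 95% interval -0.30 to 0.28) has a wide interval for so small a spread because limma moves each gene's variance towards that of all probe sets. A further 2 probe sets were annotated to both Ramp2 and Vps25 and were not counted for either. Those read lowest on control replicate 3, at 10.45 and 11.03, and differed by 0.22 (SE 0.23) and 0.13 (SE 0.18).

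Ramp3, the other Ramp that makes an adrenomedullin receptor, was less steady. It read 8.27, 8.68 and 8.82 on the control arrays and 8.66, 8.88 and 8.16 on the deleted arrays, lowest on deleted replicate 3 and control replicate 1, and differed by -0.02 (SE 0.23, 95% interval -0.58 to 0.53). Its pooled SD was larger than that of 74.6% of all genes. For each Ramp the deleted group held both the highest and the lowest array.

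**Figure D2:**
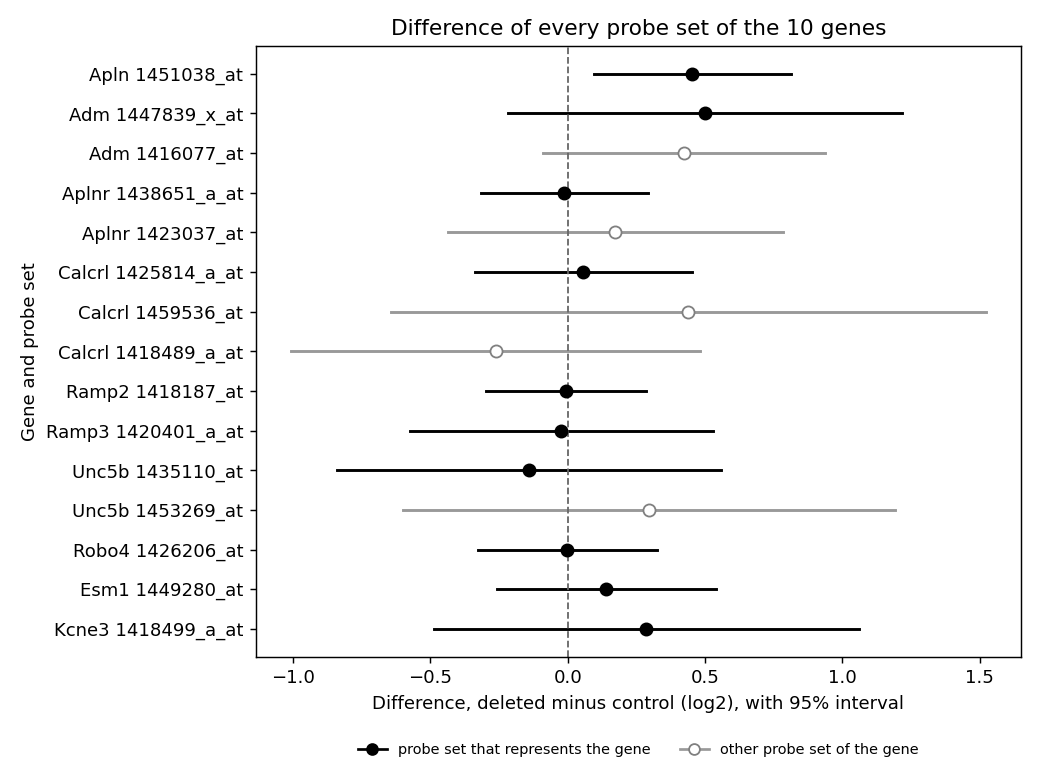
Difference of each of the 15 probe sets of the 10 genes, deleted minus control in log2, with its 95% interval from limma (filled: representative probe set, open: other probe set). The interval of Apln, from 0.10 to 0.81, lies to the right of 0, and the other 14 intervals cross it.

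Robo4, an endothelial relative of the Slit receptors, read 12.80, 12.76 and 12.96 on the control arrays and 12.94, 12.84 and 12.73 on the deleted arrays. The 6 arrays spanned 0.23, and the difference was -0.00 (SE 0.14, 95% interval -0.33 to 0.33). Unc5b, a netrin receptor that also binds Robo4, varied more and its 2 probe sets disagreed. The representative one, 1435110_at, read 7.81, 7.998 and 8.64 on the control arrays and 8.52, 7.83 and 7.67 on the deleted arrays, and the other, 1453269_at, read 6.98, 7.06 and 6.20 on the control arrays and 7.75, 7.004 and 6.38 on the deleted arrays. Control replicate 3 was the highest array on the first and the lowest on the second. The differences were -0.14 (SE 0.30, 95% interval -0.84 to 0.56) and 0.30 (SE 0.38, 95% interval -0.60 to 1.19), and without control replicate 3 the first became 0.10, so no direction could be given for Unc5b.

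Esm1, the endocan proteoglycan, read 10.11, 10.30 and 10.16 on the control arrays and 10.60, 10.29 and 10.10 on the deleted arrays. The deleted group held both the highest array, replicate 1, and the lowest, replicate 3, and the difference was 0.14 (SE 0.17, 95% interval -0.26 to 0.54). Without deleted replicate 1 it was 0.01. Kcne3 had the widest interval of the representative probe sets. It read 11.13, 11.75 and 11.69 on the control arrays and 12.03, 12.29 and 11.11 on the deleted arrays, so control replicate 1 and deleted replicate 3 were about equal and lowest, and deleted replicates 1 and 2 were the 2 highest arrays. Its difference was 0.29 (SE 0.33, 95% interval -0.49 to 1.06), and it ranged from 0.05 without deleted replicate 2 to 0.63 without deleted replicate 3, where limma's unadjusted p was 0.040.

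**Figure D3:**
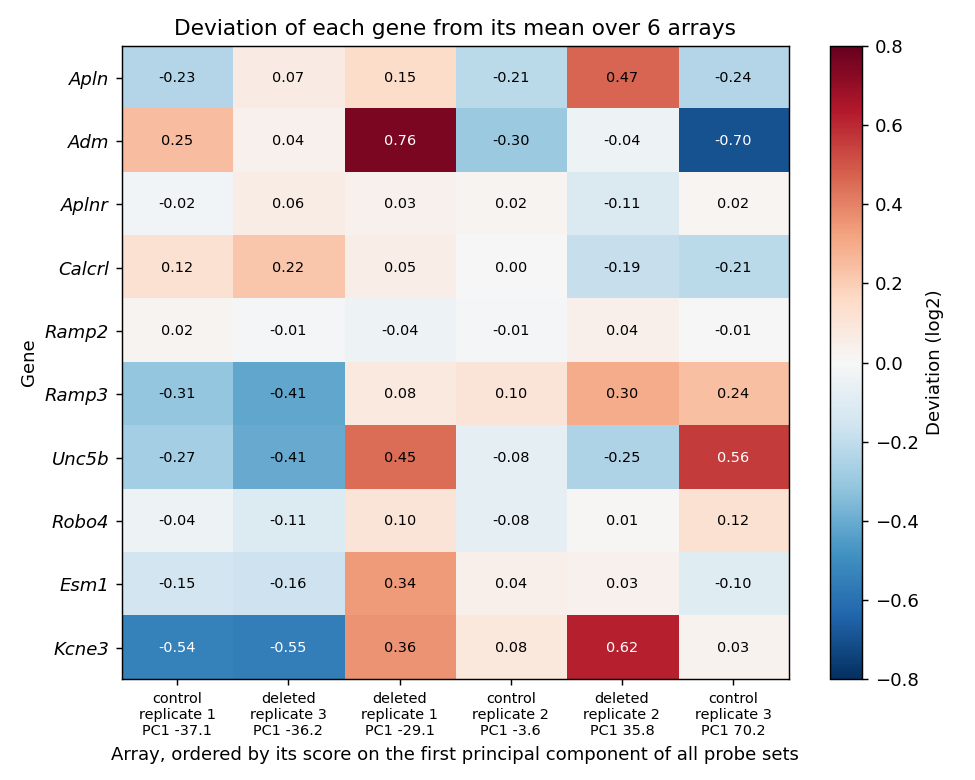
Deviation of each gene (rows, representative probe set) from its own mean over the 6 arrays in log2, with the arrays (columns) ordered by their score on the first principal component (PC1) of all probe sets. Adm runs from 0.76 on deleted replicate 1 to -0.70 on control replicate 3, Kcne3 and Ramp3 are lowest on the 2 arrays at the left, and Aplnr, Ramp2 and Robo4 stay pale.

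Several members varied together across arrays of both groups. Kcne3 deviated by -0.54 and -0.55 from its mean on control replicate 1 and deleted replicate 3, and Ramp3 by -0.31 and -0.41, whereas Calcrl was at 0.12 and 0.22 on these arrays. Both arrays lie at the low end of the first principal component. Deleted replicate 1 lies there too (-29.1), but on it Kcne3 was at 0.36, Ramp3 at 0.08 and Calcrl at 0.05. On control replicate 3 and deleted replicate 2, at the other end of the component, Calcrl read -0.21 and -0.19 and Ramp3 0.24 and 0.30. Kcne3 read 0.03 and 0.62 on them. The heat map of deviations shows the opposite courses of the receptor and of Ramp3 across these pairs of arrays, each of which holds 1 array of either group. The mean deviation of the 10 genes per array was -0.12, -0.04 and -0.03 in the control and 0.23, 0.09 and -0.13 in the deleted group, so it overlapped between the groups.

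The partner genes of these pathways showed no call either. Of 17 listed ligands, receptors, enzymes and transducers around apelin and adrenomedullin, 15 were represented, 9 of them higher and 6 lower in the deleted group, with a median difference of 0.02, 0 adjusted calls and 0 genes without overlap. The largest differences were those of Mme (neprilysin, which cleaves small peptides) at -0.44 (SE 0.31), the arrestin Arrb2 at -0.42 (SE 0.35) and Ackr3 at 0.30 (SE 0.23). Ackr3, a scavenging receptor that also takes up adrenomedullin, read 11.13, 10.92 and 10.63 on the control arrays and 11.64, 10.97 and 10.96 on the deleted arrays, with the highest array, the lowest array and the high control array that Adm had. Of the 18 guidance partners 11 read higher and 7 lower, with a median of 0.08, 0 adjusted calls and 0 without overlap. The netrin receptor Neo1 differed by -0.45 (SE 0.20), the Slit receptor Robo1 by 0.41 (SE 0.23) and the netrin receptor Unc5c by 0.37 (SE 0.50). The 5 potassium channel partners represented (of 6) had a median of -0.03, with 2 higher, 3 lower and 0 calls, and Kcne4, a subunit related to Kcne3, differed by 0.40 (SE 0.32), Kcne2 by -0.10 (SE 0.13) and the channel Kcnh2 by 0.09 (SE 0.20).

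Of 19 further tip cell genes 12 read higher and 7 lower, with a median of 0.02 and 0 adjusted calls, where 50.9% of all genes read higher. The largest difference was that of Pdgfb, the growth factor by which endothelial cells recruit pericytes, which read 9.72, 9.55 and 8.70 on the control arrays and 10.28, 9.40 and 9.77 on the deleted arrays and differed by 0.49 (SE 0.33). Plaur, the urokinase receptor, read 8.24, 8.31 and 8.11 on the control arrays and 8.63, 8.58 and 8.59 on the deleted arrays, without overlap, and differed by 0.38 (SE 0.13, 95% interval 0.07 to 0.69). Plxnd1, a semaphorin receptor, differed by 0.26 (SE 0.24). A second gene without overlap, Mcam, named after its values were seen, differed by 0.25 (SE 0.14), so 2 of 19 genes lacked overlap beside 6.07% of all genes.

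Hypoxia induces Adm as well as Apln in many cells, so a list of hypoxia response genes was read beside them. Of the 20 represented of 21, 12 read higher and 8 lower, with a median of 0.07, 0 adjusted calls and 3 without overlap, beside 6.07% of all genes, and of these 3 genes 2 were higher and 1 lower. Car9, a membrane carbonic anhydrase, read 7.55, 7.92 and 8.61 on the control arrays and 7.49, 7.36 and 6.84 on the deleted arrays, lower in the deleted group by a difference of -0.80 (SE 0.30, 95% interval -1.51 to -0.09). P4ha1, a collagen prolyl hydroxylase, read 8.50, 8.78 and 8.49 on the control arrays and 9.38, 8.87 and 8.82 on the deleted arrays and differed by 0.43 (SE 0.20, 95% interval -0.03 to 0.89). The third, Pfkfb4, named after its values were seen, differed by 0.33 (SE 0.18), and Hilpda, a lipid droplet protein, by 0.48 (SE 0.25) with overlap.

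**Figure D4:**
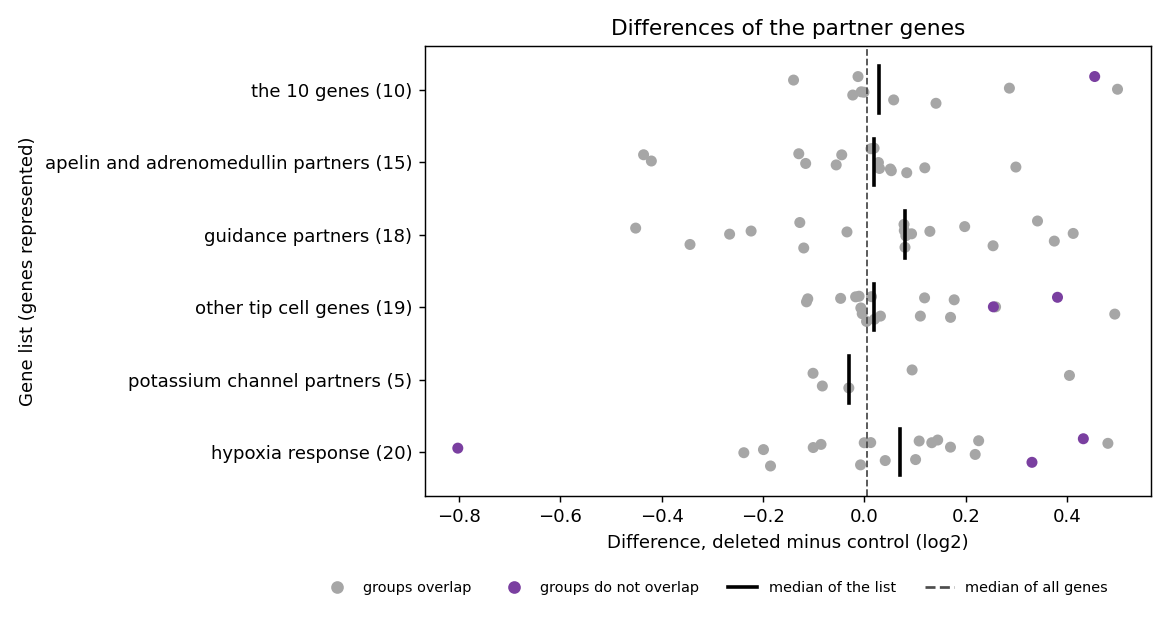
Difference of every represented gene of the 10 members and of 5 lists of partner genes, deleted minus control in log2 (points: genes, purple: groups without overlap, thick bar: median of the list, dashed line: median of all genes). The list medians lie between -0.03 and 0.08, Apln and Adm lie at 0.45 and 0.50, and Car9 lies farthest out at -0.80.

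Markers of other cell types were measured in the sorted samples, and those of macrophages and fibroblasts differed with the groups. All 11 macrophage markers read lower in the deleted group (median -0.73, 6 without overlap, beside 6.07% of all genes), and their mean deviation was 0.11 to 0.72 in the control and -0.58 to -0.10 in the deleted group. All 9 fibroblast markers read lower as well (median -0.53, 5 without overlap, 0.11 to 0.56 against -0.36 to -0.14). The largest differences of these lists were those of C1qb (-1.30, macrophages) and Col14a1 (-1.16, fibroblasts). The study had called both genes from these same arrays, so the 2 lists are not independent of this comparison. The defining genes Adgre1 (macrophages) and Col1a1 (fibroblasts) differed by -0.91 (SE 0.41) and -0.38 (SE 0.17), and 0 markers passed the adjusted test. The 6 pan-leukocyte markers read lower too, with overlapping scores of -0.03 to 0.57 and -0.64 to 0.35, Ptprc differing by -0.43. In bulk RNA, fewer cells of a type and less RNA per cell cannot be told apart.

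Of 13 endothelial markers 12 read higher in the deleted group, with a median of 0.15 and overlapping scores of -0.28 to 0.04 and -0.13 to 0.22. Control replicate 3 had the lowest endothelial score and deleted replicate 1 the highest, and these were the lowest and the highest array of Adm, whose difference was 0.17 with the pan-leukocyte score as a covariate, an alternative chosen after seeing the data. Apln differed by 0.58 with that covariate. On deleted replicate 2, where Apln was highest, the endothelial score was -0.13, and the pan-leukocyte score (0.35) and the epithelial score (0.24) were the highest of the deleted group. The 10 epithelial markers overlapped between the groups (-0.12 to 0.20 and -0.24 to 0.24, with 2 higher and 8 lower), but were bright in every sample, with mean signals of 12.25 to 12.57 in the control and 12.13 to 12.61 in the deleted group and Epcam at 12.35 and 12.46. Of 9 pericyte and smooth muscle markers 7 read higher and 2 lower (-0.28 to 0.07 and 0.01 to 0.17), Pdgfrb by 0.22. Tagln, the largest of them and named after its values were seen, differed by 0.62 (SE 0.24). It was the 1 gene of the 9 without overlap, beside 6.07% of all genes. All 7 represented lymphatic endothelial markers read lower (median -0.39, -0.17 to 0.52 and -0.54 to -0.02), Prox1 by -0.36. The largest difference among these, named after the values were seen, was that of Reln at -0.94 (SE 0.32), with overlap. Adipocyte and platelet markers had medians of 0.05 and -0.05 over 3 and 4 genes (Adipoq 0.06, Pf4 -0.21). The part that these cell types had in the values of Apln and Adm was not tested.

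**Figure D5:**
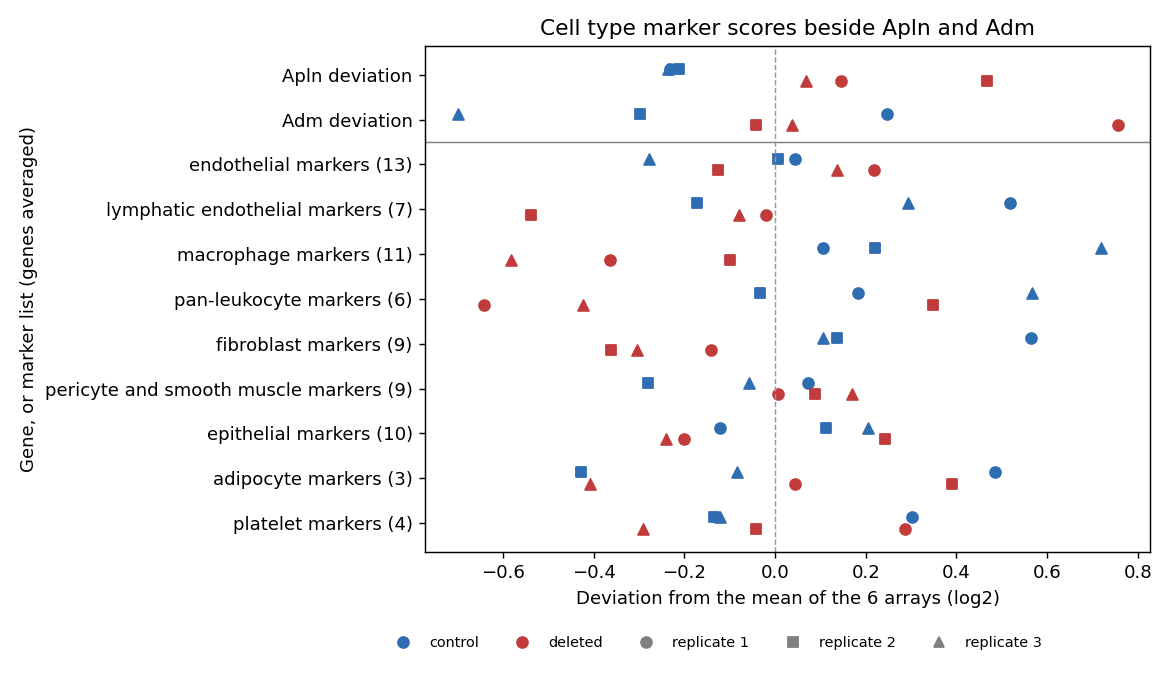
Deviation of Apln and Adm (top 2 rows) and mean deviation of 9 marker lists from their mean over the 6 arrays, in log2 (blue control, red deleted, symbols: replicates, number of genes in parentheses). Macrophage and fibroblast scores of the control arrays lie above those of all deleted arrays, Apln lies the other way round, and the other rows overlap.

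The genes whose course over the 6 arrays was most like that of a member were found by the root mean square difference between the deviations of the 2 genes from their own means, among 11287 genes brighter than the median probe set. For Apln these were Bst2, Trim16 and Rrp15, each at 0.06. Bst2 read 9.12, 9.03 and 9.05 on the control arrays and 9.54, 9.76 and 9.30 on the deleted arrays, with the order of deleted arrays that Apln had. Such likeness follows from the way these genes were picked, so it only describes them. For Adm they were Cdk2ap2 (0.09), Atf7 (0.10) and Hopx (0.12), and for Esm1 Pfkm (0.03), Cd109 (0.04) and Dck (0.04). Ranking by Pearson correlation in place of this measure named 3 other genes for Apln and kept 1 of 3 for Adm (Atf7) and 1 of 3 for Esm1 (Pfkm).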

How the data were processed

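RNA of 6 CD31-sorted samples was hybridized to Affymetrix mouse arrays, and the authors deposited log2 values made by RMA, which subtracts background, normalizes by quantiles and summarizes probe sets. The version of RMA was not given in the sources used here. For dim probe sets RMA compresses differences. Of 45101 probe sets 64 array controls were left out, and genes were named from the platform annotation (34945 probe sets with 1 gene, 932 with several, 9160 with none named). At most 0.218% of the values of an array equalled those of another, so no array was a copy. The groups were compared by limma (version 3.58.1, R 4.3.3, two-sided, eBayes after lmFit, no covariates) and adjusted by Benjamini-Hochberg over all 45037 probe sets. On simulated data the limma step recovered 35% of 100 probe sets changed by 1 log2 unit and 71% of 100 changed by 2. The simulated noise was normal and independent between probe sets, which that of the real arrays need not be. Changes as small as those of Apln and Adm were not simulated, so these shares do not give the power for the members. A real change can go uncalled. P-values set a difference between the groups against the spread between these samples, which limma moves towards that of all probe sets. Whether this is a spread between single mice is not known. Named were all members, Ets2, the 3 largest differences of each pathway list, defining markers and the 3 nearest genes of Apln, Adm and Esm1. The members and the gene lists were chosen with earlier results of these data known. Alternatives were a signal filter, other priors, array weights, centring, quantile normalization, blocks, unmoderated tests, probe set means and leaving out each array. No sample was left out of the main comparison.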

Additional observations from a re-analysis of the deposited data

How the results depend on the processing

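Apln, Adm and Esm1 kept their sign under every alternative run, and no probe set reached an adjusted p under 0.05 in limma under any. With 934 probe sets at an unadjusted p under 0.05, 58 passed the study's thresholds, and this number moved most: 15 among the brighter probe sets, 152 with array weights, 317 with the replicate block (identifier number as a fixed term), 23 and 18 with unmoderated tests of equal and unequal variances, 235 with the pan-leukocyte covariate, 402 at a fold over 1.5, and 61 to 191 leaving out 1 array. The identifier numbers are shared by 2 pairs, whose deviations correlated at 0.17 and -0.02, and nothing says what a number marks. Control replicate 3 and deleted replicate 3 have numbers of their own, so with the fixed block they add nothing to the differences. The fixed block therefore compares the 2 pairs alone. With the replicate block as a fixed term Calcrl read -0.13, Ramp3 0.29, Unc5b 0.27, Robo4 0.12, Kcne3 0.72 (limma's unadjusted p 0.013, adjusted 0.590), Adm 0.38 and Apln 0.53, and as a random term Robo4 read 0.0072. Centring gave Aplnr 0.0038, Ramp2 0.010 and Robo4 0.015, array weights gave Robo4 0.055 and Kcne3 -0.0048, the mean of all probe sets gave Aplnr 0.080 and Unc5b 0.079, and the covariate gave Calcrl -0.11, Ramp2 0.020, Ramp3 0.17 and Robo4 0.031. Leaving out 1 array gave -0.046 to 0.041 for Aplnr, -0.038 to 0.16 for Calcrl, -0.028 to 0.011 for Ramp2, -0.18 to 0.18 for Ramp3, -0.40 to 0.10 for Unc5b and -0.053 to 0.060 for Robo4. Potassium channel partners had a median of 0.19 among brighter probe sets, where only 2 of the genes were left. Hypoxia response genes had a median of 0.025 with the covariate and 0.026 to 0.13 leaving out 1 array. Ranked by Pearson correlation, 0 of the 3 genes nearest to Apln, 1 of 3 for Adm and 1 of 3 for Esm1 stayed. The causes were not tested. Probe sets near the lower end of the signal limit what the dim Calcrl probe sets can show.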
